A study of Mus musculus with 12 samples.

Results

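Mechanosensitive ion channels are membrane proteins that open when the membrane or its anchorage is stretched, and so turn force into a flow of ions. Most of them pass calcium, which acts inside the cell through calmodulin and the phosphatase calcineurin. Others pass potassium and hold the membrane potential down. In skeletal muscle, channels of this kind are studied in muscle stem cells (MuSCs), which lie between the myofiber and its basement membrane and lose contact with the myofiber after injury. 9 channel genes were described here, chosen by an exact match of the gene name among the 55335 genes of the count files. They were the Piezo channels Piezo1 and Piezo2, the TRP channels Trpv4, Trpv2, Trpc1 and Trpm7, the OSCA-related channels Tmem63a and Tmem63b, and the tandem-pore potassium channel Kcnk2. All 9 were among the 22635 genes that passed the filter on low counts.

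MuSCs came from the hindlimb of Pax7-ZsGreen mice between 3 and 6 months of age, in which a green fluorescent reporter marks Pax7-expressing cells, and were sorted by FACS on that reporter. F cells were freshly isolated and went straight into lysis reagent. Uncompressed cells grew for 2 days (2d-U) or for 5 days (5d-U), on plastic coated with Matrigel and fibronectin and in growth medium with FGF and serum. 2+3d-C cells were cultured for 2 days without compression and then for 3 days under an elastomer device whose pillars were 4 µm high. Each group had 3 libraries, called replicates here by the number in their label. F has the numbers 1, 4 and 5, the 2d-U libraries have 1 to 3, those of 5d-U have 1, 2 and 6, and the compressed ones have 4, 5 and 10. The labels did not say which libraries shared animals or cultures, so the p-values measure only the spread between these libraries, which may be technical.

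Between 12540745 (2+3d-C replicate 5) and 62424851 (2+3d-C replicate 4) reads were counted on genes per library, and 3 reads corresponded to 0.0481 to 0.239 CPM (reads per library total of 1000000). Some libraries held reads on genes of silent families (odorant, pheromone and taste receptors, defensins and keratin-associated proteins), used here as a measure of background reads. Their density was 5.12 and 7.24 reads per kb of exon in F replicates 4 and 5, 3.84 and 0.641 in 5d-U replicates 1 and 6, and 0.00967 to 0.229 in the other 8 libraries. Of the 9 MuSC markers (Pax7, Myf5, Myod1, Cdh15, Itga7, Des, Vcam1, Chrdl2 and Calcr), all had reads in every F and 2+3d-C library, 7 to 9 in 2d-U and 8 or 9 in 5d-U. Their summed level was 10451 to 14975 CPM in 2+3d-C and 2260 to 4538 CPM across the other 9 libraries. Myod1 was the largest part of it in each compressed library, at 4160 to 8463 CPM, against 553 to 2378 CPM in the other libraries. Pax7 was at 60.6 to 88.3 CPM in 2+3d-C and 8.93 to 37.9 CPM in the others. The study used MyoD protein to mark progenitors and committed cells, so the sum is not a measure of the stem cell state.

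Levels are given as RPKM (reads per kb of exon per library total of 1000000, with TMM-scaled totals), which allows genes of different length to be set side by side. Piezo1 was the channel gene with the highest mean in F (10.6 ± 6.14 RPKM, SD, n = 3) and in 2+3d-C (17.7 ± 14.4), whereas Tmem63a led in 2d-U (5.33 ± 2.15) and Tmem63b in 5d-U (6.05 ± 1.09). Piezo2 was the lowest in F (0.802 ± 0.499 RPKM) and Trpv4 the lowest in 5d-U (0.130 ± 0.101). Kcnk2 was the lowest in 2+3d-C (0.0244 ± 0.0423). Among all genes tested, the mean RPKM of Piezo1 in 2+3d-C was at percentile 86.5 and that of Kcnk2 at 27.3. Kcnk2 had 3 reads in all in that group, and genes without any read stood at a similar percentile in 2d-U (28.6 for Piezo2 and Trpv4). In one quasi-likelihood test (edgeR) over the 4 groups, 5 of the 9 genes differed at a Benjamini-Hochberg adjusted p under 0.05, beside 44.3% of all genes tested: Piezo1, Piezo2, Trpv4, Trpc1 and Kcnk2. Trpv2 (adjusted p = 0.104, edgeR), Trpm7, Tmem63a and Tmem63b did not.

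**Figure D1:**
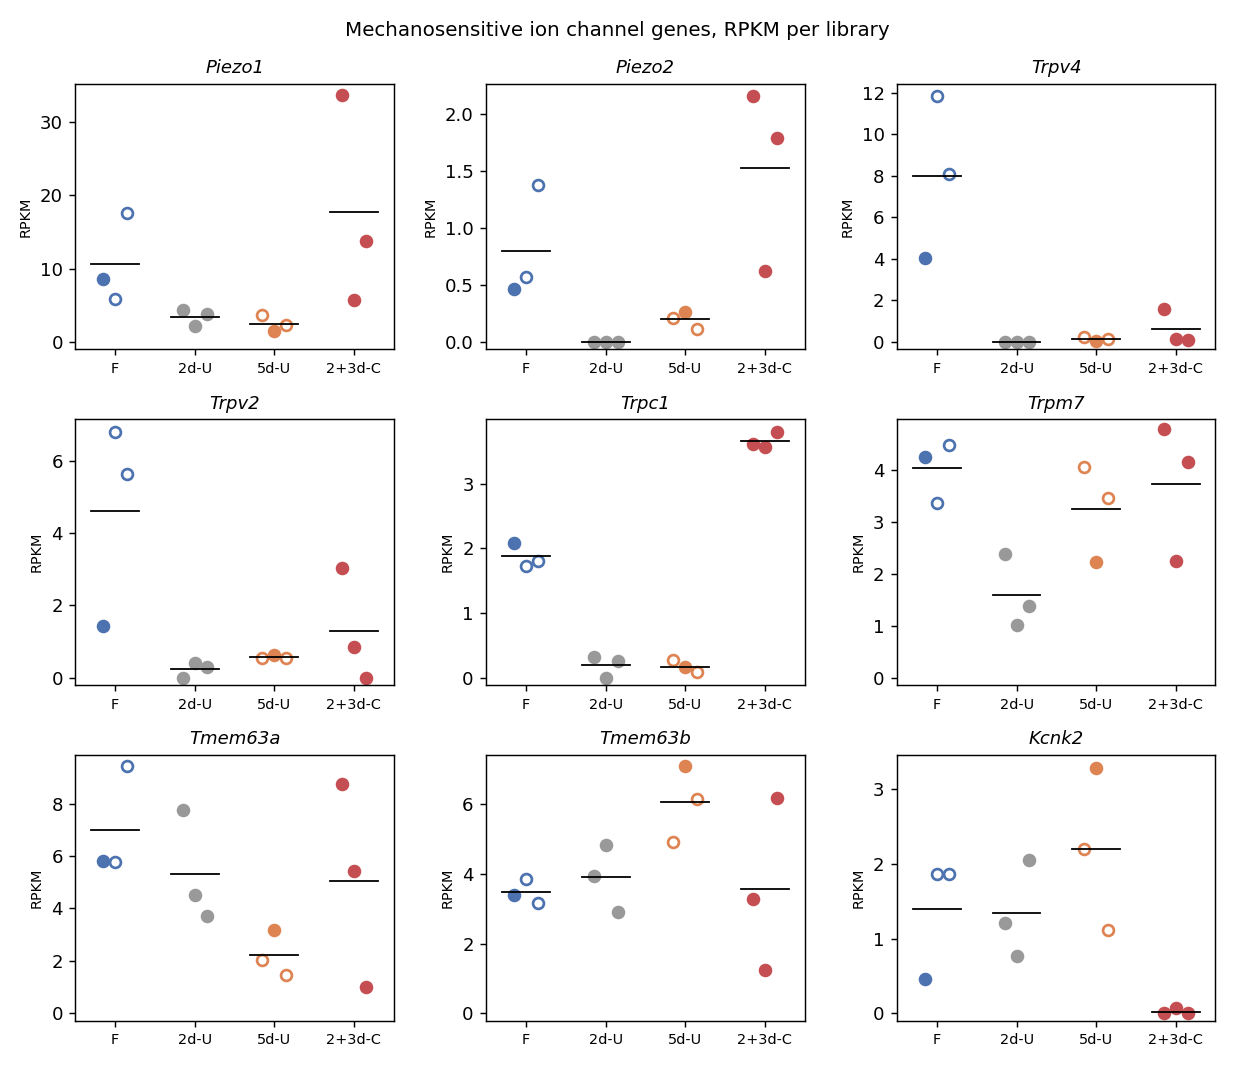
Level of each channel gene in RPKM (vertical axes, linear, from 0, with a scale of their own) in the 12 libraries by group; lines mark the group mean, and open circles mark the 4 libraries with over 0.5 silent-family reads per kb. Trpc1 stood at 3.57 to 3.80 RPKM in 2+3d-C above every other library, and Kcnk2 at 0 to 0.0733 RPKM below every other library.

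Compression was first compared with the same total time in culture without it (2+3d-C against 5d-U). 3 of the 9 channel genes were higher in 2+3d-C (Piezo1, Piezo2 and Trpc1) and 1 was lower (Kcnk2) at an adjusted p under 0.05 in edgeR's quasi-likelihood test. Beside these 4 calls, 22.6% of all genes tested were called, 9.14% as higher and 13.4% as lower. The median log2 fold change was 1.19 over the 9 channel genes and −1.05 over all genes tested. Reads fell on 39063, 23751 and 33996 genes in 5d-U replicates 1, 2 and 6, and on 20724, 15821 and 15365 in 2+3d-C replicates 4, 5 and 10. The part of background reads in the median and shares over all genes was not tested.

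Piezo1 encodes the pore of a cation channel that opens directly with membrane tension. The gene (ENSMUSG00000014444.17) lies at chr8:122481698-122551329 in mm10, on the − strand. It was at 33.6, 5.68 and 13.7 RPKM in 2+3d-C replicates 4, 5 and 10, and at 3.66, 1.52 and 2.25 RPKM in 5d-U replicates 1, 2 and 6. The lowest compressed library thus lay above the highest 5d-U library, and the compressed libraries spread over a wider range than any other group. The log2 fold change was 2.84 (SE 0.65, 95% interval 1.46 to 4.22), a 7.14-fold higher level, with an adjusted p of 0.00621 (edgeR quasi-likelihood test, Benjamini-Hochberg). In these bulk libraries, more cells with a transcript and more of it per cell cannot be told apart. The order of Piezo1 among the compressed libraries was also the order of their depth (62424851, 23495260 and 12540745 reads in replicates 4, 10 and 5), and the part of depth in it was not tested. Piezo2 and Trpm7 had the same order there, and the other channel genes did not. Without 2+3d-C replicate 4 the log2 fold change was 1.96 with an adjusted p of 0.0335 (edgeR). Exons of Ctu2 overlapped 24.6% of the exon length of Piezo1, and reads were counted without regard to strand.

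Piezo2 is the relative of Piezo1 known for touch and the sense of limb position in sensory neurons (ENSMUSG00000041482.17, on chromosome 18). It was at 2.16, 0.619 and 1.79 RPKM in 2+3d-C replicates 4, 5 and 10, and at 0.210, 0.264 and 0.117 RPKM in 5d-U replicates 1, 2 and 6. Among the compressed libraries its order was again that of depth, whose part was not tested. All compressed libraries were higher than all 5d-U libraries, with a log2 fold change of 2.95 (SE 0.77, adjusted p = 0.0164, edgeR). This call was lost without 2+3d-C replicate 4 (log2 fold change 2.60, adjusted p = 0.0528, edgeR) or without 5d-U replicate 6 (2.68, adjusted p = 0.0783, edgeR). In every library with reads on either gene, Piezo1 made up most of the RPKM of the pair, from 85.2% in 5d-U replicate 2 to 100% in the 2d-U libraries.

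Trpc1 encodes a subunit of cation channels linked to calcium entry after store release (ENSMUSG00000032839.13, chr9:95705082-95750375, − strand), and its spread among the compressed libraries was the least of the 9 genes relative to the mean. It was at 3.62, 3.57 and 3.80 RPKM in 2+3d-C replicates 4, 5 and 10, and at 0.271, 0.161 and 0.0853 RPKM in 5d-U replicates 1, 2 and 6. The groups did not overlap, and the compressed mean was 3.66 ± 0.124 RPKM (SD, n = 3) against an uncompressed mean of 0.172 ± 0.0933. The log2 fold change was 4.40 (SE 1.12, 95% interval 2.02 to 6.79; adjusted p = 0.0117, edgeR). The 5d-U libraries held 50, 37 and 14 reads on Trpc1, of which 30.8, 0.484 and 5.15 were expected from the background density. With the expected background subtracted in every library the log2 fold change was 5.19, with an adjusted p of 0.00618 (edgeR). The call was lost with a term for the 4 libraries rich in background reads (4.37, adjusted p = 0.0686, edgeR) and without those libraries (4.51, adjusted p = 0.309, edgeR).

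Kcnk2 encodes a potassium channel that opens with stretch and with some lipids (ENSMUSG00000037624.15, chr1:189207930-189402273, − strand), and no other of the 9 channel genes was called as lower in this comparison. Kcnk2 was at 0, 3 and 0 reads in 2+3d-C replicates 4, 5 and 10, and at 249, 465 and 112 reads in 5d-U replicates 1, 2 and 6. In RPKM these were 0, 0.0733 and 0 against 2.19, 3.28 and 1.11. With reads pooled over libraries and scaled by library size, the level in 5d-U was 319 times that in 2+3d-C, with a 95% interval of 109 to 1549 that covers counting error only. Pooling gives the deepest library the most weight, and with every library weighted equally the ratio of the means (2.19 and 0.0244 RPKM) was 89.8, and 55.0 for 2d-U and 57.2 for F. The adjusted p was 0.0041 (edgeR quasi-likelihood test). The deepest compressed library held no read on Kcnk2. Exons of A430027H14Rik overlapped 12.2% of the exon length of Kcnk2.

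**Figure D2:**
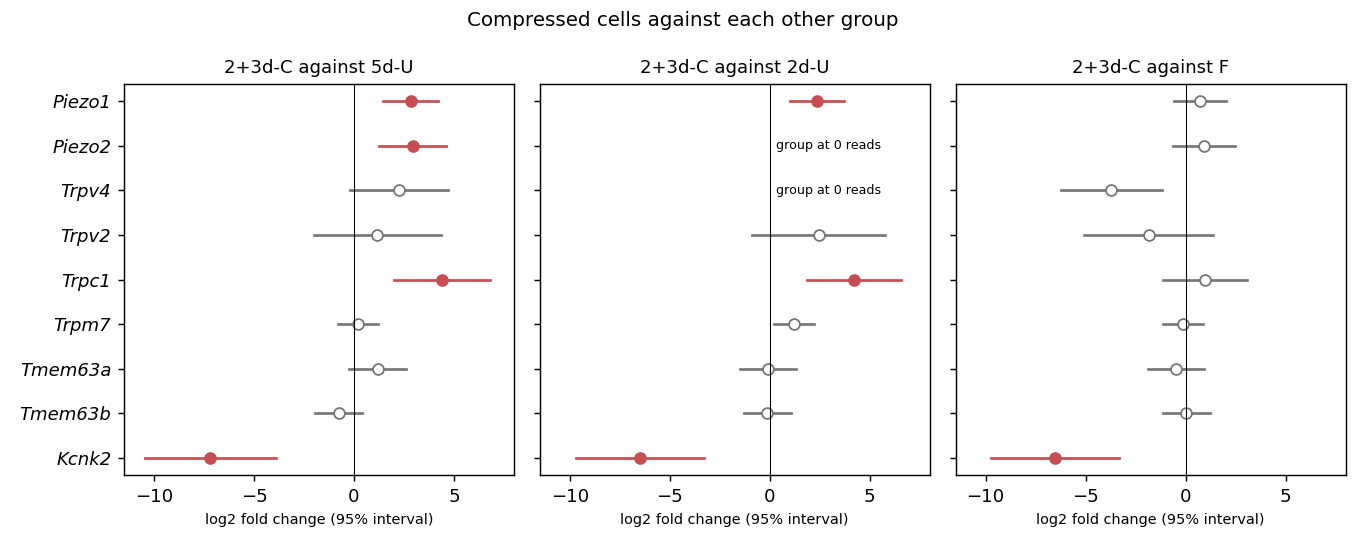
log2 fold change (horizontal axes) of the 9 channel genes in 2+3d-C against 5d-U, 2d-U and F, with 95% intervals from the edgeR fit of 12 libraries; filled circles passed an adjusted p under 0.05, and genes without a read in 2d-U are marked in place of a value. Kcnk2 lay at −7.19, −6.48 and −6.54 in the 3 panels, values that depend on the fit's prior count because the compressed libraries held 0 to 3 reads, and Trpc1 lay at 4.40, 4.22 and 0.97.

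The other 5 channel genes were not called in 2+3d-C against 5d-U. Trpv4, a calcium-permeable channel opened by cell swelling, warmth and lipid products (ENSMUSG00000014158.12, chr5:114622152-114658421, − strand), was at 1.58, 0.148 and 0.0673 RPKM in 2+3d-C replicates 4, 5 and 10, and at 0.235, 0.0342 and 0.120 RPKM in 5d-U replicates 1, 2 and 6. Only replicate 4 stood above the 5d-U libraries. The log2 fold change was 2.24 (95% interval −0.20 to 4.68, adjusted p = 0.137, edgeR) and −0.33 without that library. Trpv2, a cation channel of the same subfamily, was at 3.04, 0.835 and 0 RPKM in the compressed libraries and at 0.543 to 0.638 RPKM in 5d-U. Its log2 fold change of 1.16 (95% interval −2.02 to 4.34, adjusted p = 0.554, edgeR) became −0.53 without replicate 4.

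Trpm7, a channel for magnesium, calcium and zinc joined to a kinase domain, was at 2.24 to 4.78 RPKM in 2+3d-C and at 2.23 to 4.05 in 5d-U. The ranges nearly coincided, and the log2 fold change was 0.20 with a 95% interval of −0.80 to 1.20. Tmem63a and Tmem63b encode stretch-opened cation channels related to the plant OSCA family. Tmem63a was at 8.76, 5.43 and 1.01 RPKM in 2+3d-C replicates 4, 5 and 10 and at 1.45 to 3.18 RPKM in 5d-U (log2 fold change 1.19, 95% interval −0.24 to 2.61). Tmem63b was at 3.28, 1.23 and 6.16 RPKM in the same compressed libraries and at 4.92 to 7.10 RPKM in 5d-U (log2 fold change −0.76, 95% interval −1.95 to 0.42). The compressed libraries were unlike each other in this pair, since Tmem63a made up 72.7%, 81.5% and 14.1% of their summed RPKM in replicates 4, 5 and 10, beside 19.1% to 31.0% in 5d-U.

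2+3d-C was next set against 2d-U, the culture from which compression started. 4 channel genes were higher (Piezo1, Piezo2, Trpv4 and Trpc1) and 1 was lower (Kcnk2), beside 24.6% of all genes tested (16% higher and 8.63% lower). Without TMM scaling, 44.7% of all calls in this comparison were higher in place of 64.9%, while these 5 genes kept their directions and Piezo1 lost its call (adjusted p = 0.0626, edgeR). Piezo2 and Trpv4 had no read in any of the 3 2d-U libraries. Against a floor of 3 reads in each 2d-U library, Piezo2 was at least 326-fold higher in 2+3d-C (adjusted p = 3.76e-05, edgeR) and Trpv4 at least 30.4-fold higher (adjusted p = 0.00241, edgeR). For Trpv4 the mean behind this bound came largely from replicate 4, which held 344 reads, whereas replicates 5 and 10 held 5 and 6, and without replicate 4 it was 5.47-fold. Piezo1 was at 4.34, 2.17 and 3.82 RPKM in 2d-U replicates 1, 2 and 3, below every compressed library, with a log2 fold change of 2.36 (SE 0.63, adjusted p = 0.0148, edgeR). The call of Piezo1 was lost without 2+3d-C replicate 4 (1.49, adjusted p = 0.0971, edgeR) or without 2d-U replicate 2 (2.11, adjusted p = 0.0605, edgeR). Trpc1 was at 0.320, 0 and 0.262 RPKM in 2d-U, again below every compressed library (log2 fold change 4.22, SE 1.10, adjusted p = 0.0129, edgeR). Kcnk2 was at 1.21, 0.769 and 2.05 RPKM in 2d-U, and the pooled level there was 196 times that in 2+3d-C (95% interval 66.9 to 953, counting error only). Trpm7 had a log2 fold change of 1.22 with an adjusted p of 0.0725 (edgeR), and was called without 2+3d-C replicate 5 (1.48, adjusted p = 0.0368, edgeR) and with DESeq2 (adjusted p = 0.0302). Tmem63a and Tmem63b had intervals of −1.48 to 1.33 and −1.30 to 1.05.

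Against F, the freshly isolated cells, 1 of the 9 channel genes was called in 2+3d-C, beside 6.4% of all genes tested (1.94% higher and 4.47% lower). Of all calls in this comparison 30.2% were higher, 10.4% without TMM scaling and 20.1% with DESeq2. The called gene was Kcnk2, at 0.463, 1.87 and 1.87 RPKM in F replicates 1, 4 and 5. Its pooled level in F was 208 times that in 2+3d-C (95% interval 70.8 to 1010, counting error only; adjusted p = 0.0256, edgeR), and the call was lost without F replicate 4 (adjusted p = 0.0746) or F replicate 5 (adjusted p = 0.0703, edgeR). Trpv4 was at 4.06, 11.9 and 8.08 RPKM in F replicates 1, 4 and 5, above all compressed libraries, but its log2 fold change of −3.71 (95% interval −6.24 to −1.17) had an adjusted p of 0.0723 (edgeR). This difference was called without 2+3d-C replicate 4 (−6.26, adjusted p = 0.00934, edgeR) or F replicate 1 (−4.11, adjusted p = 0.0408, edgeR), without a filter on low counts (adjusted p = 0.00813, edgeR) and with DESeq2 (adjusted p = 0.00364). Trpc1 was at 2.08, 1.73 and 1.81 RPKM in F, below all compressed libraries, with a log2 fold change of 0.97 (95% interval −1.12 to 3.05). The interval of Piezo1 was −0.56 to 2.03, and F replicate 5 (17.6 RPKM) exceeded 2 of the 3 compressed libraries. Piezo2 was at 0.463, 0.567 and 1.38 RPKM in F, with an interval of −0.64 to 2.49 that allows both directions.

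The levels in the 2 uncompressed cultures were then set against F. In 2d-U, 5 channel genes were lower than in F (Piezo1, Piezo2, Trpv4, Trpc1 and Trpm7) and none was higher, beside 43.8% of all genes tested (33.3% lower and 10.6% higher). The median log2 fold change was −1.63 over the 9 channel genes and −1.63 over all genes tested. F replicates 1, 4 and 5 had reads on 18549, 44817 and 47398 genes, and the 2d-U libraries on 15467 to 17367. The part of background reads in the all-gene values was not tested here either. Trpv4 was at least 406-fold and Piezo2 at least 172-fold lower, against 3 reads per 2d-U library, and without F replicate 5 the bound of Piezo2 was 110-fold. Background reads were not taken out of these bounds. On Piezo2, 87.9 of 303 reads in F replicate 4 and 124 of 933 in F replicate 5 were expected from background. Trpc1 fell by 3.26 (SE 1.06), Piezo1 by 1.63 (SE 0.62) and Trpm7 by 1.34 (SE 0.47) on the log2 scale, with adjusted p-values of 0.0277, 0.0464 and 0.0377 (edgeR quasi-likelihood test). Without F replicate 5 the values of Piezo1, Trpc1 and Trpm7 were −1.06, −3.28 and −1.25 and none of the 3 was called. Piezo1 also lost its call without any one 2d-U library (−1.81, −1.36 and −1.69 without replicates 1, 2 and 3) or 5d-U replicate 6 (−1.61), and Trpc1 without F replicate 4 (−3.30) or 2d-U replicate 3 (−3.51), and it was −2.67 without 2d-U replicate 2. Trpm7 lost its call without F replicate 4 (−1.44), 2d-U replicate 2 (−1.08) or 3 (−1.23), or 5d-U replicate 1 or 6 (−1.32 in both). Trpv2 was 19.4-fold lower in 2d-U without overlap, with an adjusted p of 0.0508 (edgeR), and it was called without F replicate 1, 5d-U replicate 1 or 2 or any one compressed library (adjusted p = 0.0114 to 0.0461, edgeR), without a filter (adjusted p = 0.000882, edgeR), in the 2 groups alone (adjusted p = 0.0447, edgeR) and with DESeq2 (adjusted p = 0.00801). Kcnk2 overlapped between these groups, with a 95% interval of −2.37 to 2.25.

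In 5d-U, 3 channel genes were lower than in F (Piezo1, Trpv4 and Trpc1) and none was higher, beside 20.5% of all genes tested (8.9% lower and 11.6% higher). Of all calls in this comparison 56.6% were higher, and 42.2% with DESeq2. Trpv4 fell by 5.94 on the log2 scale (SE 1.31, adjusted p = 0.00622, edgeR), the largest of the 3 changes, and by 6.63 without F replicate 1 and 6.68 without 5d-U replicate 1. Of its 22, 4 and 10 reads in 5d-U replicates 1, 2 and 6, 15.6, 0.246 and 2.61 were expected from the background density. Piezo1 fell by 2.10 (SE 0.63, adjusted p = 0.027, edgeR) and Trpc1 by 3.44 (SE 1.07, adjusted p = 0.0334, edgeR). The call of Piezo1 was lost without F replicate 5 (−1.53) or 5d-U replicate 2 (−1.83) or 6 (−2.03), and that of Trpc1 without any one of the F libraries or of these 2. Piezo2, Trpv2 and Tmem63a were called as lower with DESeq2 (adjusted p = 0.00256, 0.04997 and 0.00676), and Tmem63a also without 2+3d-C replicate 10 (adjusted p = 0.036, edgeR). All 3 were also called in the 2 groups alone (adjusted p = 0.0400, 0.00817 and 0.0332, edgeR). Piezo2 and Tmem63a were called with background subtracted (adjusted p = 0.0377 and 0.0459, edgeR) and with genes of at least 5 CPM, and Trpv2 without a filter. Of 10 settings, 6, 7 and 6 left Piezo2, Trpv2 and Tmem63a uncalled. Between 5d-U and 2d-U, 1 channel gene was called, beside 2.12% of all genes tested (1.87% higher and 0.243% lower). Of all calls here 88.5% were higher, and 73.7% without TMM scaling. It was Piezo2, with 83, 130 and 41 reads in 5d-U replicates 1, 2 and 6 after none in 2d-U, at least 42.2-fold higher (adjusted p = 0.0076, edgeR). In replicate 1, 65.9 of the 83 reads were expected from background, but in replicate 2 this was 1.03 of 130.

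**Figure D3:**
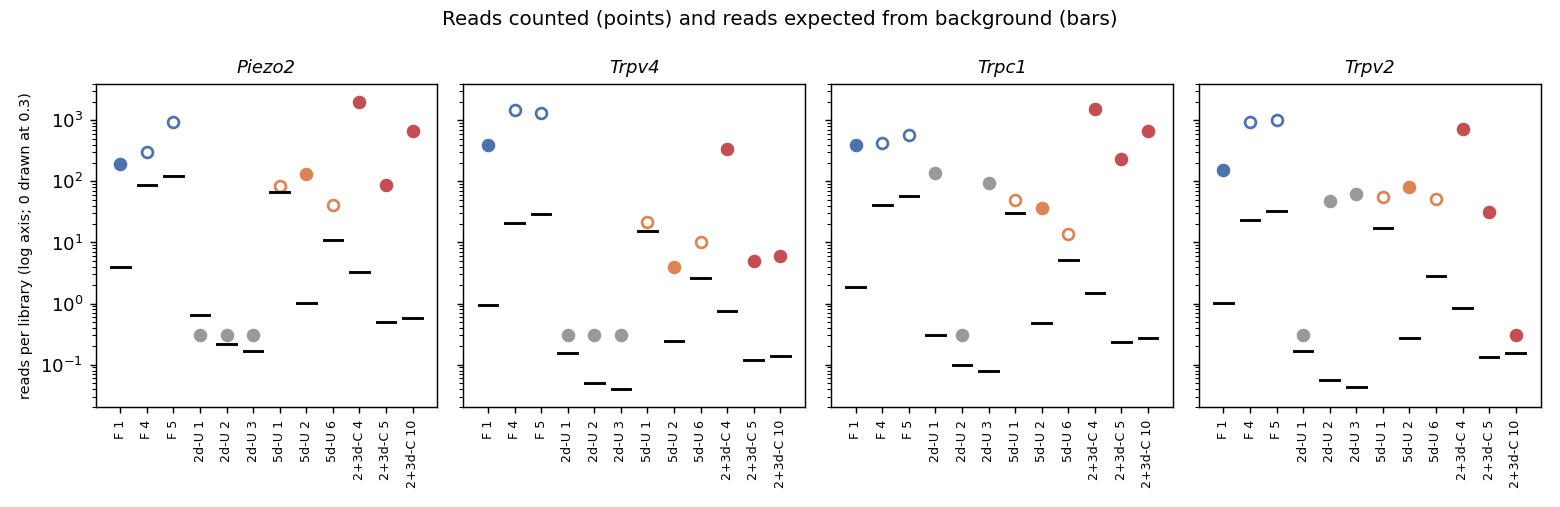
Reads counted on Piezo2, Trpv4, Trpc1 and Trpv2 in each library (circles, log axis, 0 drawn at 0.3) and reads expected from the silent-family density times the exon length (bars); open circles mark the 4 libraries with over 0.5 silent-family reads per kb. In 5d-U replicate 1 the counts of Piezo2 (83), Trpv4 (22) and Trpc1 (50) were not far above the expected 65.9, 15.6 and 30.8, whereas the 2+3d-C libraries lay far above theirs except for Trpv2 in replicate 10, which had no read.

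The groups can be ordered for each gene by their mean level. Piezo1 ran 2+3d-C, F, 2d-U and 5d-U (17.7, 10.6, 3.44 and 2.48 RPKM), where the first and the last pair of neighbours were not told apart (adjusted p = 0.411 and 0.629, edgeR) and F and 2d-U differed. Trpc1 followed the same order (3.66, 1.87, 0.194 and 0.172 RPKM), with the same pairs of neighbours not told apart (adjusted p = 0.512 and 0.927, edgeR). Piezo2 ran 2+3d-C, F, 5d-U and 2d-U (1.52, 0.802, 0.197 and 0 RPKM), and only the step from 5d-U to 2d-U differed between neighbours. Trpv4 ran F, 2+3d-C, 5d-U and 2d-U (8.0, 0.599, 0.130 and 0 RPKM), and none of the steps between neighbours passed the test in the fit of all 12 libraries (adjusted p = 0.0723, 0.137 and 0.0531, edgeR). Besides the first step, called in the fits named above, the step from 5d-U to 2d-U was called without 5d-U replicate 2 (adjusted p = 0.0306, edgeR) or without 2+3d-C replicate 4, 5 or 10 (adjusted p = 0.0154, 0.0367 and 0.0139, edgeR), without a filter (adjusted p = 0.000251, edgeR) and with DESeq2 (adjusted p = 0.00122). These fits kept background reads. In 5d-U replicates 1, 2 and 6, 15.6 of 22, 0.246 of 4 and 2.61 of 10 Trpv4 reads were expected from background. Kcnk2 ran 5d-U, F, 2d-U and 2+3d-C (2.19, 1.4, 1.34 and 0.0244 RPKM), and only the last step differed.

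Markers of other cell types of muscle were counted beside the channel genes, which are also transcribed outside MuSCs. Summed over 8 endothelial markers, the level was 1212 to 1735 CPM in F, 258 to 289 in 2+3d-C, 7.89 to 40.8 in 5d-U and 11.2 to 13.9 in 2d-U. 7 fibroadipogenic markers summed to 2259 to 7858 CPM in F, 515 to 988 in 2+3d-C, 9.35 to 62.4 in 5d-U and 4.63 to 11.6 in 2d-U. 8 immune markers summed to 493 to 1239 CPM in F, 11.2 to 34.0 in 2+3d-C, 1.26 to 22.9 in 5d-U and 0.665 to 2.23 in 2d-U, and Ptprc, the pan-leukocyte antigen, had no read in 2+3d-C or 2d-U. 5 glial markers summed to 430 to 736 CPM in F, 183 to 611 in 2+3d-C, 5.86 to 11 in 5d-U and 2.17 to 2.62 in 2d-U. 7 smooth muscle and pericyte markers summed to 799 to 1069 CPM in F, 276 to 441 in 2+3d-C, 62.4 to 732 in 5d-U and 62.7 to 87.8 in 2d-U. The 4 tendon markers summed to 418 to 4511 CPM in F, 73.6 to 164 in 2+3d-C, 172 to 997 in 5d-U and 168 to 304 in 2d-U. The 5 myofiber markers summed to 28.5 to 2466 CPM in F, 61.0 to 181 in 2+3d-C, 159 to 2504 in 5d-U and 49.2 to 87.2 in 2d-U. In 2d-U, Flt1, Pdgfra, Lum, Dpt, Mfap5 and Sox10 had no read. The endothelial, fibroadipogenic, immune, glial and smooth muscle lists did not overlap between 2d-U on one side and F and 2+3d-C on the other, where they were higher, and their part in the channel gene differences was not tested. Among the compressed libraries, the fibroadipogenic sum was 540, 988 and 515 CPM in replicates 4, 5 and 10. Within this list, Pdgfra had 454, 2 and 2 reads in these replicates, beside 344, 5 and 6 reads on Trpv4. In CPM, Ly6a, Dcn, Lum, Dpt and Mfap5 were instead highest in replicate 5, and Col1a1 in replicate 10. The part of such cells in the Trpv4 reads was not tested.

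**Figure D4:**
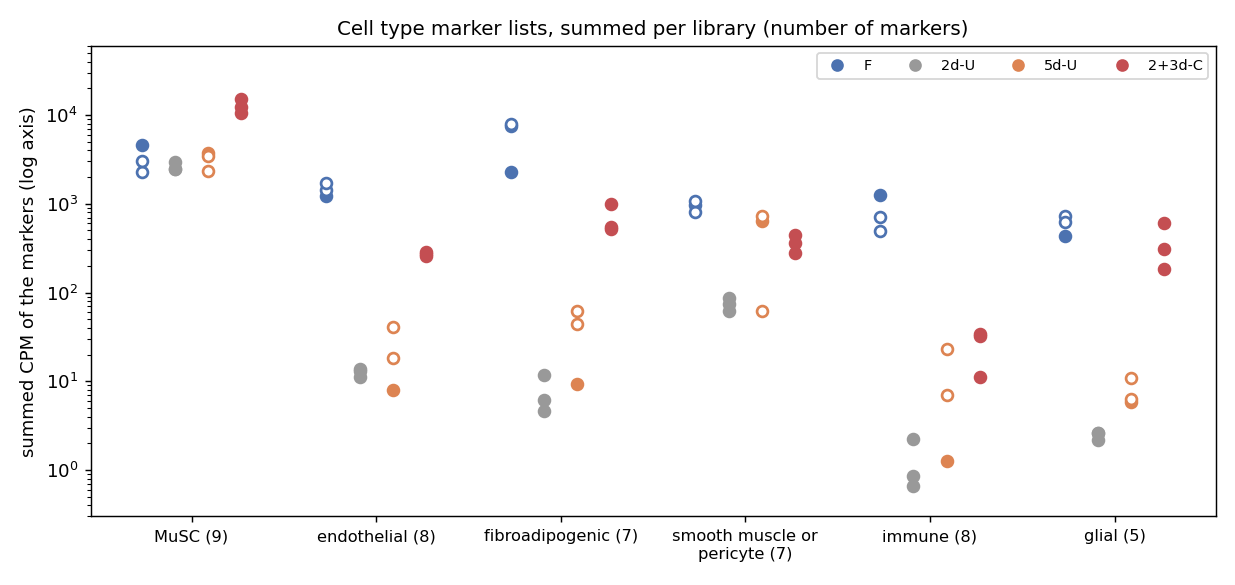
Summed CPM (log axis) of 6 cell type marker lists in each library by group, with the number of markers in brackets and open circles for the 4 libraries with over 0.5 silent-family reads per kb. The endothelial, fibroadipogenic and glial sums of the 2+3d-C libraries (258 to 289, 515 to 988 and 183 to 611 CPM) lay between those of F and those of the uncompressed cultures in 2 of the lists and overlapped F in the glial list.

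Genes that act with these channels were taken from lists of related channels, partners and calcium pathway genes, and are described by counts in 2+3d-C against 5d-U, where 9.14% of all genes tested were higher and 13.4% lower. Of 28 other force-linked channel genes, 2 were higher and 1 was lower, and their median log2 fold change was −1.0. The 2 were Pkd1 and Pkd2, which encode the polycystin receptor and channel of primary cilia, at 5.18 ± 3.46 against 0.651 ± 0.336 RPKM (adjusted p = 0.00852, edgeR) and at 11.6 ± 6.73 against 2.14 ± 0.655 RPKM (adjusted p = 0.00609, edgeR; SD, n = 3). The 1 was Tmem150c, without a read in 2+3d-C and at 0.255 ± 0.146 RPKM in 5d-U. Of 22 other TRP genes tested, Pkd2 was higher and Trpm1 lower (no read in 2+3d-C, 0.0777 ± 0.0598 RPKM in 5d-U). Background reads were expected at 0.167, 0.0021 and 0.0314 RPKM on every gene in 5d-U replicates 1, 2 and 6. In 2+3d-C this was 0.0016 to 0.0035 RPKM. The part of background in the Trpm1 call was not tested. Of 9 other tandem-pore potassium channel genes tested, Kcnk1 was higher (8.93 ± 11.5 against 0.106 ± 0.0733 RPKM, adjusted p = 0.00357, edgeR) and Kcnk13 was lower (no read against 1.83 ± 1.35 RPKM).

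Of 7 partner genes tested, 4 were higher and none was lower, with a median log2 fold change of 2.25. They were Cav1, the coat protein of caveolae, at 257 ± 77.3 RPKM in 2+3d-C and 37.7 ± 20.5 in 5d-U (log2 fold change 2.77, adjusted p = 0.0011, edgeR), Atp2a2, which encodes a calcium pump of the endoplasmic reticulum (2.61), the scaffold Homer1 (2.37) and Mdfic, an auxiliary subunit of Piezo channels (2.25), which was named after its value was seen. In F these 4 genes were not told apart from 2+3d-C, with adjusted p-values of 0.262 to 0.959 (edgeR). In that comparison only 6.4% of all genes tested were called, so most genes were not told apart there. Cav1 is also abundant in endothelial cells, whose markers moved with it, and their part was not tested.

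The store-operated calcium entry genes split, with 1 of 5 higher and 2 lower. Stim1, the calcium sensor of the store, was at 1.81 ± 1.17 RPKM in 2+3d-C and 0.361 ± 0.142 in 5d-U (adjusted p = 0.0216, edgeR). The plasma membrane pores Orai1 and Orai2 were lower, with log2 fold changes of −2.04 and −3.35 (adjusted p = 0.0119 and 0.00518, edgeR). Of 8 calcineurin and NFAT genes, 4 were higher and 1 was lower, with a median of 1.73. Nfatc1, a transcription factor that calcineurin activates, was at 52.1 ± 37.3 RPKM in 2+3d-C and 0.791 ± 0.374 in 5d-U (log2 fold change 6.04, SE 0.71, adjusted p = 5.75e-05, edgeR), and was at 38.2 ± 8.48 in F. Rcan1, an inhibitor of calcineurin and a known NFAT target, stood at 132 ± 57.9 RPKM under compression, against 9.62 ± 1.62 in 5d-U, and F had 182 ± 56.5 RPKM (log2 fold change against 5d-U 3.78, adjusted p = 7.37e-05, edgeR). Nfatc2 (log2 fold change 6.58) and the catalytic subunit Ppp3ca (1.86, named after its value was seen) were the other two higher genes. The regulatory subunit Ppp3r1, of whose exon length 14.3% is shared with another gene, fell by 2.04.

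Of 8 calmodulin, calmodulin kinase and calpain genes, 1 was higher and 2 were lower. Camk2d was higher (log2 fold change 1.26, adjusted p = 0.0494, edgeR), and Calm3 and Camk2g fell by 1.89 and 3.83.

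**Figure D5:**
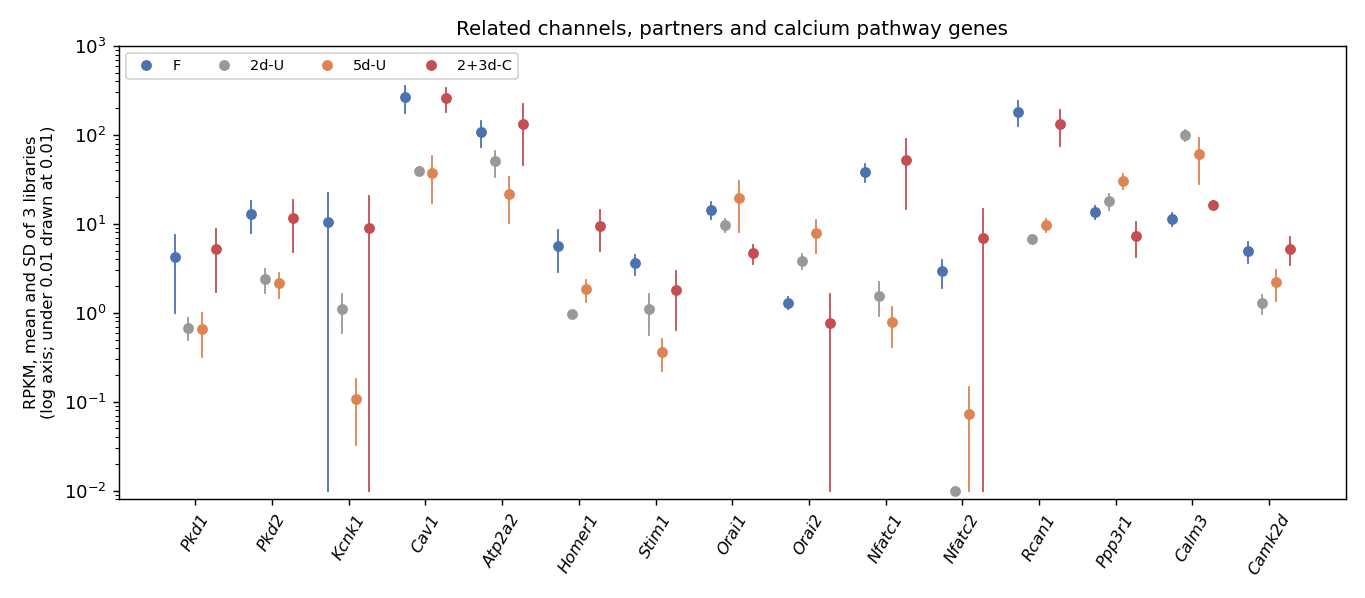
Mean RPKM (log axis) with SD over 3 libraries for related channels, partners and calcium pathway genes in the 4 groups; values under 0.01 are drawn at 0.01. Cav1, Nfatc1 and Rcan1 stood in 2+3d-C near their level in F (257 and 264, 52.1 and 38.2, and 132 and 182 RPKM) and lower in both uncompressed cultures, whereas Orai2 and Calm3 were higher in the uncompressed cultures.

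The sequence before the start of 3 channel genes is shown because their levels moved in different ways: Piezo1 was higher under compression, Trpv4 had reads mainly in F, and Kcnk2 was nearly without reads under compression. RefSeq gave a promoter for 8 of the 9 genes (build GRCm38.p6), and the 250 bases before the start are written 5′ to 3′ on the strand of the gene. Matches to 5 motifs, searched on both strands, are in capitals: the general E-box CANNTG, the TEAD motif GGAATG, the NFAT motif GGAAAA, the RBPJ motif GTGGGAA and the AP-1 motif TGANTCA. The piece of Piezo1 lies at chr8:122551330-122551579 (− strand), that of Trpv4 at chr5:114658422-114658671 (− strand) and that of the first of 4 starts of Kcnk2 at chr1:189402274-189402523 (− strand).
Piezo1: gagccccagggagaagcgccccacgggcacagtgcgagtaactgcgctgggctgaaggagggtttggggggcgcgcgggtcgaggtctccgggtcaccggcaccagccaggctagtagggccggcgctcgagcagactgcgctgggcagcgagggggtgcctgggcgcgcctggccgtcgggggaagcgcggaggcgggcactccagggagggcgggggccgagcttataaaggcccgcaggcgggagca
Trpv4: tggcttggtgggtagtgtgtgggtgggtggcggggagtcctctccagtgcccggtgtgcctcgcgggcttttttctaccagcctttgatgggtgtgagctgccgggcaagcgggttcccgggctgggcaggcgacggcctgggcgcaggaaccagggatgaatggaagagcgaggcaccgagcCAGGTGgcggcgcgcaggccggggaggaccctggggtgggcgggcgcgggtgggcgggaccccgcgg
Kcnk2: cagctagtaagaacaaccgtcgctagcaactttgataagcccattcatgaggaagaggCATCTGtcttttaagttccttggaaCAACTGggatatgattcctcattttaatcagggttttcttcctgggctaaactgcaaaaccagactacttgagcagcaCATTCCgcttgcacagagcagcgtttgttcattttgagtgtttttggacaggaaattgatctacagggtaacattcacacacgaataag
The piece of Piezo1 was 74.0% G and C and held no match to the 5 motifs, that of Trpv4 was 72% G and C with 1 E-box, and that of Kcnk2 was 42.4% G and C with 2 E-boxes and 1 TEAD motif (CATTCC on this strand). Over all 32851 promoters of this length the median was 52.4% G and C, and 66.2% held an E-box, 12.6% a TEAD motif, 20.4% an NFAT motif, 5.42% an RBPJ motif and 6.75% an AP-1 motif. The other 3 starts of Kcnk2 had 53.2%, 74.4% and 70.4% G and C. Before the second there were 1 E-box and 1 AP-1 motif, before the third 1 E-box and before the fourth none of the 5, and the counts did not tell which start was used.

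The profile of each channel gene over the 12 libraries was set beside those of 10202 named genes whose mean reached 5 CPM, by Pearson's r of log2 CPM. The points share their libraries, depths and groups, so these values only describe likeness. The genes most like Piezo1 were Bicral (r = 0.974), Kansl1 and Dnajc27, and 100th in that order had an r of 0.900. Trpc1 was most like Slc22a4 (r = 0.982), P2ry1 and Nrbp2, and Piezo2 most like Pcdh9 (r = 0.981), Ash1l and Mid2. Trpv4 was most like Abca9 (r = 0.987), Col20a1 and Spi1, the last of which encodes a myeloid transcription factor. Kcnk2 was most like Slc37a4 (r = 0.983), Katnal1 and Dclre1a. For the remaining 4 genes the first in order were Tspan18 (Trpv2, r = 0.969), March6 (Trpm7, r = 0.953), C2cd2l (Tmem63a, r = 0.945) and Alg10b (Tmem63b, r = 0.934). Among the channel genes themselves, r was highest between Piezo2 and Trpm7 (0.81) and between Piezo1 and Trpc1 (0.78), and lowest between Piezo1 and Kcnk2 (−0.67).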

How the data were processed

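12 RNA-seq libraries were analysed, 3 for each of the 4 conditions, which were taken from the labels. The authors deposited raw counts per gene and library: single-end reads of 75 bases, amplified with a low-input kit and aligned to mm10, were counted on exons with featureCounts 1.6.4 without regard to strand and without normalization. A merged table held identical counts in its 12 columns. The libraries held 30350468 reads on genes on average, and floors and pooled ratios cover counting error only.

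Tests used edgeR 4.0.16 (R 4.3.3). After filterByExpr and TMM scaling, all libraries entered 1 quasi-likelihood fit in which each group had its own coefficient, without a replicate block. Tests were two-sided, with Benjamini-Hochberg adjustment over all 22635 genes and calls at an adjusted p under 0.05. RPKM used scaled library sizes and the exon lengths in the files. Where a group had no read, the fold was bounded by setting each of its libraries to 3 reads, with background reads left in the other group. Expected background was exon length times the read density over 1853 autosomal silent-family genes. Same-numbered libraries of different groups deviated from their group means with correlations of −0.424 to 0.0322. Those of differently numbered libraries ran from −0.436 to 0.477, so this could not decide whether the numbers pair libraries. The main fit did not take them to do so. Data were simulated for 2+3d-C against 5d-U (19834 genes, 19634 of them unchanged). Of the genes changed by 3 on the log2 scale 27 of 68 were recovered, with 2 of 65 changed by 2 and 0 of 67 changed by 1. There was 1 false call among the unchanged genes. In the data 22.6% of all genes tested were called, a far larger share than was changed here, so these rates need not hold for the data. A missing call does not show a small difference to be absent.

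DESeq2 1.42.0, other scalings, filters, designs and left-out libraries were alternatives. The channel genes and the lists were chosen with earlier results of these data known. Named were all 9 channel genes, from each list the 3 genes with the highest mean RPKM or the smallest p in 2+3d-C against 5d-U, and the 3 nearest profiles. One further list and a single gene are not reported here. Exon overlaps were computed with GenomicRanges 1.54.1.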

Additional observations from a re-analysis of the deposited data

How the results depend on the processing

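Of the channel genes' log2 fold changes recomputed one choice at a time, 1039 kept direction and side of the threshold, 67 lost a call, 38 gained one and 42 turned direction, all of them without a call. The number of called channel genes moved by over 1.5 times in these cases. Without TMM scaling it was 3 in 2d-U against F. Without a filter on low counts it was 2 in 2+3d-C against F and 2 in 5d-U against 2d-U, and with genes of at least 5 CPM or with background reads subtracted it was 5 in 5d-U against F. With a term for the 4 libraries rich in background it was 2 in 2+3d-C against 5d-U, where Piezo2 and Trpc1 lost their calls (adjusted p = 0.0674 and 0.0686, edgeR), 0 against F, and 2 in 2d-U against F. Without those 4 libraries it was 0 in 2+3d-C against 5d-U, 3 against 2d-U, 0 against F, 2 in 2d-U against F, 0 in 5d-U against F, 0 in 5d-U against 2d-U and 1 over the 4 groups, with 1 library left in F and in 5d-U, assumed to vary like the other groups. There, Piezo1, Piezo2, Trpc1 and Kcnk2 had log2 fold changes of 3.55, 2.53, 4.51 and −7.57 against 5d-U (adjusted p = 0.112, 0.331, 0.309 and 0.0823, edgeR). In fits of only the 2 groups compared it was 3 in 2+3d-C against 2d-U, 0 against F and 6 in 5d-U against F. With DESeq2 it was 2 in 2+3d-C against F, 6 in 5d-U against F and 2 in 5d-U against 2d-U. The replicate block gave 1, 3 and 2 in 2+3d-C against 5d-U, 2d-U and F. It gave 3 in 2d-U against F, 0 in 5d-U against F, 2 in 5d-U against 2d-U and 3 over the groups. Under the block Kcnk2 was still called against 5d-U (adjusted p = 0.00877, edgeR). Piezo1, Piezo2 and Trpc1 lost their calls there, at 1.74, 1.53 and 2.48 (adjusted p = 0.339, 0.614 and 0.410, edgeR). The compressed and 5d-U libraries shared no number, so the block compared them only by way of the F and 2d-U libraries. Libraries whose number occurred in no other group added nothing to this fit, so little was left to measure spread. The calls lost under the block therefore do not show that these differences are absent. Whether the numbers pair these libraries is not known. Leaving out 1 library gave 3 to 4, 4 to 6 and 0 to 2 calls in 2+3d-C against 5d-U, 2d-U and F, 2 to 6 and 1 to 4 in 2d-U and 5d-U against F, 1 to 2 in 5d-U against 2d-U and 5 to 6 over the groups. The causes of these moves were not tested. Against 5d-U, Piezo1, Trpc1 and Kcnk2 were called in each of the 12 fits without 1 library.

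The directions that turned were as follows. Tmem63b in 2+3d-C against F was −0.33 without TMM scaling, −0.24 with genes of at least 5 CPM, −0.79 under the block, −0.066 with background subtracted and −0.067 with the term for background, and −0.17 in the 2 groups and −0.17 with DESeq2. Tmem63b in 2d-U against F was −0.12 with genes of at least 5 CPM and −0.018 with DESeq2. Kcnk2 in 2d-U against F was 0.055 without a filter, 1.11 under the block, 0.15 with the term and 1.56 without the 4 libraries. Under the block, Trpv4 and Trpm7 in 2+3d-C against 5d-U were −0.041 and −0.27, Tmem63a in 2d-U against F was 0.11, Trpm7 in 5d-U against F was 0.023 and Trpc1 in 5d-U against 2d-U was 1.96. Trpm7 in 2+3d-C against F was 0.072 with the term. Leaving out 1 library gave ranges across 0 against 5d-U for Trpv4 (−0.33 to 2.99), Trpv2 (−0.53 to 1.74) and Trpm7 (−0.028 to 0.49), against 2d-U for Tmem63a (−0.74 to 0.41) and Tmem63b (−0.78 to 0.28), and against F for Piezo1 (−0.13 to 1.30), Trpm7 (−0.33 to 0.16), Tmem63a (−1.13 to 0.032) and Tmem63b (−0.59 to 0.46). The same held in 2d-U against F for Tmem63b (−0.00021 to 0.35) and Kcnk2 (−0.56 to 0.24), in 5d-U against F for Kcnk2 (−0.15 to 0.98), and in 5d-U against 2d-U for Trpc1 (−0.75 to 0.37). Another scaling shifted the median log2 fold change of all genes by up to 0.48, downward in 2+3d-C against F without TMM.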
